A study of Homo sapiens with 4 samples.

Results

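The enzymes that make serine from glucose and load its side-chain carbon onto folate were followed in cells labelled NB4, an acute promyelocytic leukemia cell line, with and without GNE-987. GNE-987 is a chimeric degrader, a small molecule made to direct a protein to the proteasome. The genes were chosen by name and role, with earlier results of these data known. They were PHGDH, PSAT1, PSPH, SHMT1, SHMT2, MTHFD1, MTHFD1L, MTHFD2 and ALDH1L2, which are 9 of the 58735 genes in the deposited table. RNA-seq libraries were made from total RNA of 2 control samples with no treatment and 2 samples treated with GNE-987, at 25 nM for 24 h per the study. All 4 libraries came from the same cell line, with no other agent or genetic change in the labels. Whether the 2 libraries of a group came from separate cultures is not given in the sources used here, so the P values measure only the spread between these libraries, which may be technical.

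Serine synthesis branches off glycolysis at 3-phosphoglycerate. PHGDH oxidises it, PSAT1 transfers an amino group from glutamate, and PSPH removes the phosphate to give serine. The serine hydroxymethyltransferases, SHMT1 in the cytosol and SHMT2 in mitochondria, then move a carbon from serine to tetrahydrofolate and release glycine. Formate made from that carbon in mitochondria is used in the cytosol for purines and thymidylate. Proliferating leukemia cells are known to draw on this route for nucleotides, glycine and redox balance, and several of its genes are known targets of the transcription factor ATF4.

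In the deposited values the pathway did not move as one. Of the 9 enzymes, all of which passed the filter on low values, 5 fell with GNE-987 (PSAT1, PSPH, MTHFD1, MTHFD2 and ALDH1L2), none rose, and 4 did not meet the rule for a call (PHGDH, SHMT1, SHMT2 and MTHFD1L). A gene was called lower when its fold was under 0.5 and its P value from limma, before adjustment, was under 0.05 on log2(FPKM + 0.1). FPKM counts fragments per length of transcript and per depth of the library. SHMT1 and MTHFD1L, with lower values, and SHMT2, with higher values, passed on limma's P value and missed the fold, while PHGDH passed on neither. The fit of limma-voom on recovered reads called none of the 9 higher. By the rule 24.9% of the 16668 tested genes were lower and 33.6% were higher, that is 4148 and 5602 genes, against 6707 and 4158 with scaling to total reads, 5464 and 4235 with quantile normalization and 9738 and 3031 with scaling to GAPDH. The median log2 fold change was -1.13 over the 9 enzymes, 0.17 over all tested genes and -0.29 over the 10996 protein-coding ones, of which 31.7% were lower. Both GNE-987 libraries lay below both control libraries for 7 of the 9 enzymes, against 41.6% of all tested genes. In bulk RNA, fewer cells that express a gene and less RNA per cell cannot be told apart.

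The scaling sets the direction of some of these changes, so its values stand here first. Reads on genes, recovered from the FPKM values, numbered 17332775 and 17115273 in the controls and 11177363 and 11634273 with GNE-987. The read totals behind the deposited FPKM were 1.33 and 1.29 times the reads on genes in the controls, and 0.748 and 0.759 times with GNE-987. Mitochondrially encoded genes held 4.21% and 5.11% of the reads in the controls, and 17.3% and 16.9% with GNE-987. GAPDH, a glycolytic enzyme often used as a reference, was at 398 and 432 FPKM in the controls and 1501 and 1499 FPKM in the treated cells. The part of these differences in the results was not tested. Scaling to total reads on genes moved the median log2 fold change of all genes by -0.76, to -0.59, and scaling to GAPDH moved it by -1.77, to -1.59. Ratios between 2 enzymes within a library do not depend on any scaling that multiplies a whole library by 1 factor, and are given below for that reason. Quantile normalization is not of that kind and changes them.

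**Figure D1:**
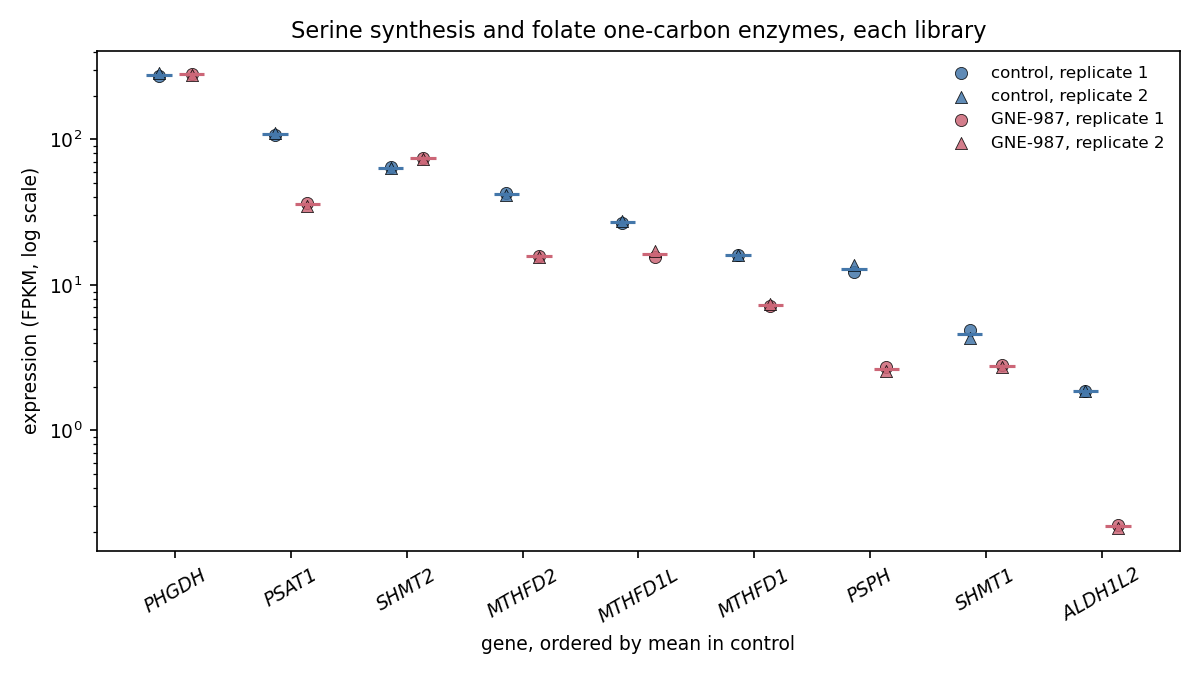
Expression of the 9 enzymes in FPKM on a log scale, 1 point per library, with bars at the mean of the 2 libraries of a group. PHGDH stays between 271 and 284 FPKM and SHMT2 lies slightly higher with GNE-987, while the GNE-987 points of the other 7 enzymes lie below the control points.

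In the serine branch, the first enzyme held its level in the deposited values while the next 2 fell. PHGDH (ENSG00000092621, hg38 chr1:119648411-119744218, plus strand) is often regarded as the committed step. Its level was 271 and 284 FPKM in the controls and 279 and 279 FPKM with GNE-987. The 2 groups overlapped, with both GNE-987 libraries inside the range of the controls. The log2 fold change was 0.01 (SE 0.04, 95% interval -0.11 to 0.13, limma adjusted P = 0.82). In reads, PHGDH had 57414 and 57851 in the controls and 21532 and 22702 with GNE-987, so counting error was small. Its direction rests on the scaling: the log2 fold change was -0.79 when scaled to total reads on genes, -1.58 after quantile normalization and -1.84 when scaled to GAPDH.

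PSAT1 (ENSG00000135069, chr9:78297125-78330093, plus strand) was the enzyme with the next highest level in the controls. Its level was 106 and 110.0 FPKM in the controls and 36.7 and 34.7 FPKM with GNE-987. The groups lay far apart, and the mean of 108 ± 2.57 FPKM (SD, n = 2) was 3.03-fold that of 35.7 ± 1.37 FPKM with GNE-987. The log2 fold change was -1.60 (SE 0.05, limma adjusted P = 0.00018).

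PSPH (ENSG00000146733, chr7:56011051-56051604, minus strand), the phosphatase of the last step, was at 12.2 and 13.7 FPKM in the controls and at 2.73 and 2.54 FPKM with GNE-987. Both treated libraries were well under both controls. The mean fell 4.91-fold, with a log2 fold change of -2.25 (SE 0.10, limma adjusted P = 0.000275). PSPH had 774 and 839 reads in the controls and 63 and 62 with GNE-987. Among pseudogenes named after the 9 enzymes, PSPHP1 was the one with more than 3 reads in a library. It was at 5.16 and 3.46 FPKM in the controls and at 15.6 and 7.81 FPKM with GNE-987. These came from 31 and 20 reads in the controls and 34 and 18 with GNE-987. The groups of PSPHP1 thus overlapped in reads, and its higher FPKM rests on the scaling. How reads shared by PSPH and PSPHP1 were divided is not given in the sources used here.

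Within a library, the balance of the serine branch shifted toward PHGDH. The ratio of PSAT1 to PHGDH was 0.393 and 0.388 in the controls and 0.131 and 0.125 with GNE-987, a 3.05-fold lower mean. The ratio of PSPH to PHGDH was 0.0450 and 0.0484 in the controls and 0.00976 and 0.00911 with GNE-987, a 4.95-fold lower mean. Neither ratio overlapped between the groups, and the exact two-sided permutation test gave P = 0.333 for each, the smallest that 2 against 2 libraries allow. With every gene expressed relative to PHGDH, limma gave log2 fold changes of -1.61 for PSAT1 (adjusted P = 0.000224) and -2.26 for PSPH (adjusted P = 0.000275). As PHGDH itself had 0.01 under the deposited scaling, these nearly repeat the main values of -1.60 and -2.25 and are not separate evidence. PHGDH made up 49.6% and 50.5% of the summed FPKM of the 9 enzymes in the controls and 64.2% and 64.5% with GNE-987, and PSAT1 19.5% and 19.6% against 8.43% and 8.03%.

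The serine hydroxymethyltransferases differed by compartment. SHMT2 (ENSG00000182199, chr12:57229573-57234935, plus strand), the mitochondrial enzyme, was at 64.1 and 63.7 FPKM in the controls and 74.9 and 73.3 FPKM in the treated cells. The treated libraries were the higher ones, by 1.16-fold in the mean, with no overlap. The log2 fold change of 0.21 (SE 0.04, 95% interval 0.11 to 0.32, limma adjusted P = 0.00881) was short of the fold the rule asks for. It turned negative under 3 other scalings, at -0.58 with total reads on genes, -0.51 with quantile normalization and -1.64 with GAPDH.

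SHMT1 (ENSG00000176974, chr17:18327860-18363563, minus strand), the cytosolic enzyme, was at 4.90 and 4.33 FPKM in the controls and 2.83 and 2.72 FPKM in the treated cells. The groups did not overlap, but the mean ratio of 1.66-fold did not reach the fold of 2 (log2 fold change -0.71, SE 0.10, limma adjusted P = 0.00496). The ratio of SHMT2 to SHMT1 was 13.1 and 14.7 in the controls and 26.5 and 26.9 with GNE-987, 1.93-fold higher and apart in every library (exact permutation P = 0.333, the smallest possible).

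**Figure D2:**
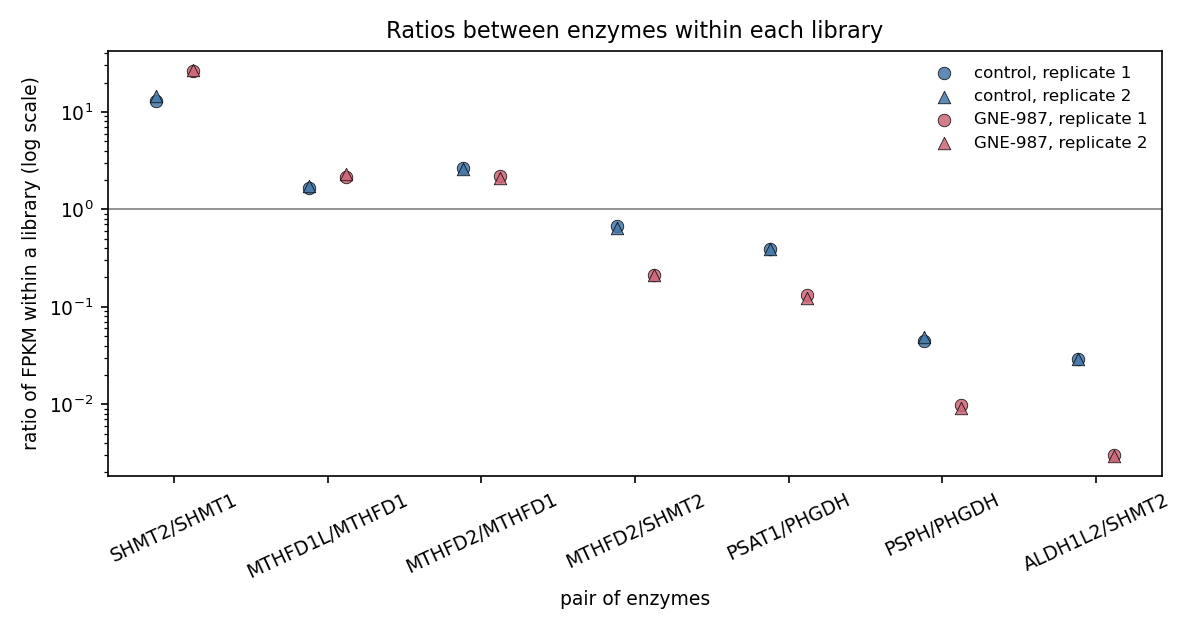
Ratios of FPKM between pairs of enzymes within each library, on a log scale, 1 point per library. The SHMT2/SHMT1 ratio lies higher with GNE-987 (26.5 and 26.9 against 13.1 and 14.7), and the ratios of PSAT1 and PSPH to PHGDH and of MTHFD2 and ALDH1L2 to SHMT2 lie lower.

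Downstream of SHMT2 in mitochondria, MTHFD2 and ALDH1L2 fell and MTHFD1L had lower values that missed the fold. MTHFD2 (ENSG00000065911, chr2:74186172-74217565, plus strand) carries the dehydrogenase and cyclohydrolase steps and is known as an enzyme that is high in embryos and tumors and low in most adult tissues. Its level was 43.0 and 41.3 FPKM in the controls and 15.9 and 15.5 FPKM with GNE-987. The 2 groups were clearly separated, with a mean 2.69-fold lower (log2 fold change -1.42, SE 0.05, limma adjusted P = 0.000199). Relative to SHMT2 in the same library, MTHFD2 went from 0.670 and 0.648 to 0.212 and 0.211. MTHFD2L, the related mitochondrial enzyme, was at 1.61 and 1.65 FPKM in the controls and 1.34 and 1.73 FPKM with GNE-987, so the groups overlapped (log2 fold change -0.09, limma adjusted P = 0.645).

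MTHFD1L (ENSG00000120254, chr6:150865679-151101887, plus strand) releases formate in mitochondria. The controls had 26.6 and 27.5 FPKM, against 15.4 and 17.1 FPKM after GNE-987. The treated libraries were both lower, by 1.66-fold in the mean, and the rule was not met (log2 fold change -0.73, SE 0.07, limma adjusted P = 0.00154). In the controls MTHFD2 was above MTHFD1L in both libraries. With GNE-987 their values overlapped, with MTHFD2 between 15.5 and 15.9 FPKM.

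ALDH1L2 (ENSG00000136010, chr12:105019784-105107643, minus strand) oxidises mitochondrial 10-formyltetrahydrofolate and yields NADPH. It had the lowest level and the steepest fold of the 9, at 1.87 and 1.87 FPKM in the controls and 0.225 and 0.213 FPKM with GNE-987. The mean was 8.55-fold lower, from 367 and 352 reads in the controls and 16 reads in each treated library. ALDH1L2 passed the filter, a mean of 0.5 FPKM or more over the libraries, only through its controls. The log2 fold change was -2.63 on the scale with 0.1 added (SE 0.19, 95% interval -3.17 to -2.09, limma adjusted P = 0.00079). It was -1.24 with 1 added and -3.04 with 0.01 added, so its size depends on this constant while its call did not.

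In the cytosol, the trifunctional enzyme MTHFD1 (ENSG00000100714, chr14:64388031-64463457, plus strand) interconverts the one-carbon folates that feed purine and thymidylate synthesis. It was at 16.0 and 16.0 FPKM in the controls and 7.13 and 7.41 FPKM in the treated cells. The groups were apart and the mean was 2.20-fold lower (log2 fold change -1.13, SE 0.06, limma adjusted P = 0.000357). It is the call closest to the threshold, and limma's test against a fold of 2 did not keep it. The ratio of MTHFD1L to MTHFD1 was 1.66 and 1.72 in the controls and 2.16 and 2.30 with GNE-987, while that of MTHFD2 to MTHFD1 was 2.69 and 2.58 against 2.23 and 2.09. Neither ratio overlapped between the groups (exact permutation P = 0.333 for each, the smallest possible).

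The order of the 9 levels changed in the middle. In the controls the order from high to low was PHGDH, PSAT1, SHMT2, MTHFD2, MTHFD1L, MTHFD1, PSPH, SHMT1 and ALDH1L2, and no neighbours overlapped. With GNE-987 SHMT2 stood above PSAT1, while MTHFD1L and MTHFD2 overlapped, as did SHMT1 and PSPH. Among tested protein-coding genes, PHGDH was at percentile 99.5 in the controls and 98.5 with GNE-987, SHMT2 at 96.0 and 94.8, PSAT1 at 98.1 and 89.6, PSPH at 74.4 and 38.9, and ALDH1L2 at 26.1 and 0.973. The last value is set in large part by the filter. Genes low in all libraries were left out, and ALDH1L2 was kept through its controls. The summed FPKM of the 9 was 545 and 562 in the controls and 435 and 433 with GNE-987. Without PHGDH the sums were 275 and 278 against 156 and 154.

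**Figure D3:**
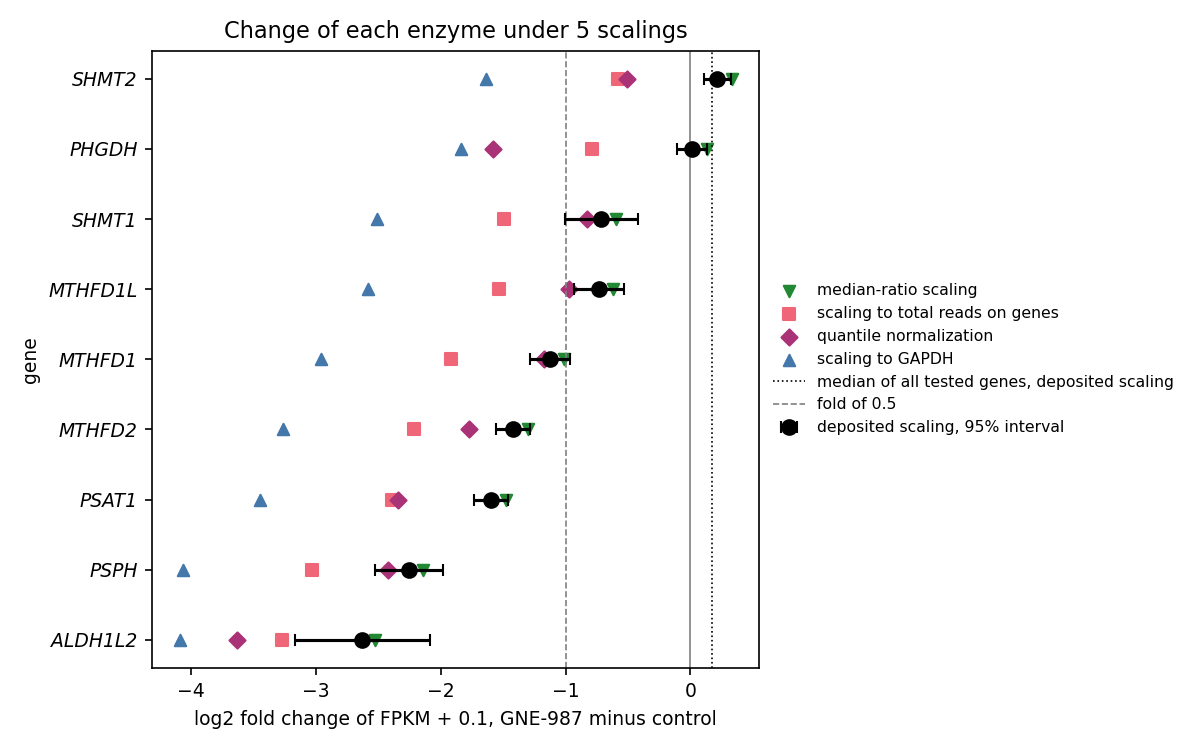
Log2 fold change of FPKM + 0.1 for each enzyme, GNE-987 minus control, with 95% intervals from limma under the deposited scaling and point values under 4 other scalings. PHGDH and SHMT2 lie at 0.01 and 0.21 under the deposited scaling and below 0 with total reads, quantile normalization and GAPDH. The other 7 enzymes lie below 0 under all 5.

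The enzymes were also set against PHGDH. Scaled to PHGDH, 7 enzymes had negative log2 fold changes, from -0.72 for SHMT1 to -2.64 for ALDH1L2, all with limma adjusted P values of 0.00775 or less, and SHMT2 had 0.20 (limma adjusted P = 0.0242). This scaling was chosen after the data were seen, and it nearly repeats the deposited one, under which PHGDH had a log2 fold change of 0.01. Quantile normalization, which moves genes of unlike level by unlike amounts, gave another order. PHGDH at -1.58 then lay below SHMT1 at -0.83, MTHFD1L at -0.97 and MTHFD1 at -1.17, and still above PSAT1 at -2.34, PSPH at -2.42, MTHFD2 at -1.77 and ALDH1L2 at -3.63. Under the scaling to total reads 7 of the 9 were called lower, under quantile normalization 6 and under GAPDH all 9. Of all 16668 tested genes these called 6707, 5464 and 9738 lower. The 5 genes closest to PHGDH in pattern were RANBP1, GATAD2A, ITGB1, HSPA9 and CALU. They were taken from 3404 protein-coding genes whose mean was 10 FPKM or more. Their distance from PHGDH was between 0.0132 and 0.0293, as the Euclidean distance of log2 values centred over the 4 libraries. RANBP1, for example, was at 121 and 127 FPKM in the controls and 124 and 123 FPKM with GNE-987.

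Reads of neighbouring genes bear on 5 of the enzymes. The strand setting of the counting is not given in the sources used here, and genes on the opposite strand share exonic bases with SHMT1, SHMT2, MTHFD1, MTHFD2 and ALDH1L2. The longest such stretch was 1556 bases between MTHFD1 and the long noncoding RNA gene ENSG00000272909. That gene was at 0.604 and 0.556 FPKM in the controls and 0.0640 and 0.121 FPKM with GNE-987. With a protein-coding gene the longest was 1324 bases between MTHFD2 and SLC4A5, and SLC4A5 was at no more than 0.240 FPKM in any library. ALDH1L2 shares 131 bases with WASHC4, at 4.30 and 4.80 FPKM in the controls and 3.33 and 2.83 FPKM with GNE-987, and 145 bases with NOPCHAP1, at 1.31 and 1.33 FPKM in the controls and 0.379 and 0.328 FPKM with GNE-987. SHMT1 shares 197 bases with SMCR8, which was at 5.44 and 6.73 FPKM in the controls and at 2.76 and 2.89 FPKM with GNE-987. SMCR8 was above SHMT1 in both control libraries, and like SHMT1 it had its lower values with GNE-987. The part of these neighbours' reads in the values of MTHFD1, ALDH1L2 and SHMT1 was not tested. PHGDH, PSAT1 and PSPH share none, so overlapping genes do not touch the serine branch.

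The promoters were read because members with unlike changes sit in 1 pathway. RefSeq windows on GRCh38.p14, taken as the 250 bases before an annotated start, were at hand for 6 of the 9 enzymes, with 9 windows in all. Motifs were searched on both strands as CACGTG (the E-box bound by MYC and MAX), TGATGNAAT (a form of the element bound by ATF4 with C/EBP partners) and CCAAT (the box bound by NF-Y), and none of these contains another. Of 35116 windows of this length, 6.34% held CACGTG, 0.888% held TGATGNAAT and 32% held CCAAT. PSAT1, MTHFD2 and MTHFD1L are shown because they stand for a called fall with 3 boxes, a called fall with 2 boxes and a smaller difference. The bases run up to the first annotated exon of the gene inside the window, if any, with CCAAT or its complement in capitals. The annotated genes MTHFD2 and MTHFD1L begin upstream of the windows shown, at 74186172 and 150865679, so exons of other transcripts lie before these windows.
PSAT1, chr9:78296875-78297124, plus strand: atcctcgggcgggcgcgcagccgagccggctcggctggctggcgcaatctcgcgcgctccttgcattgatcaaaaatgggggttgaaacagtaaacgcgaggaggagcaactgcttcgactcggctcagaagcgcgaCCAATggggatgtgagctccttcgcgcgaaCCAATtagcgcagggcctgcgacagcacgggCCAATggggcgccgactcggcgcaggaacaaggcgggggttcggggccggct
MTHFD2, chr2:74198365-74198609, plus strand: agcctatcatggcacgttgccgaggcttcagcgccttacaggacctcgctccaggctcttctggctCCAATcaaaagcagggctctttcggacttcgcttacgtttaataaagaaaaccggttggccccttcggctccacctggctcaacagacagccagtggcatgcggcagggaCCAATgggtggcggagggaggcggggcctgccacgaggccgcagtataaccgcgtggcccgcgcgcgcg
MTHFD1L, chr6:150866083-150866332, plus strand: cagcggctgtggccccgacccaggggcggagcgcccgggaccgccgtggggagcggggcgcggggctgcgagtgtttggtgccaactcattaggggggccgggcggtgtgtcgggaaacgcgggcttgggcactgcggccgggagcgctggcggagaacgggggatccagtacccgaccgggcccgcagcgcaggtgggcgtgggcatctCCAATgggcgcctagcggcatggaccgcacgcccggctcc

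CCAAT began 113, 83 and 52 bases before the start in PSAT1 and 184 and 74 bases before it in MTHFD2. All 6 enzymes had a window with CCAAT, and PHGDH had it 71 bases before its start. CACGTG was found in MTHFD1, 15 bases before the start, and in 2 of the MTHFD1L windows, which also held TGATGCAAT. These windows overlap, so this is 1 site of each. No window of PHGDH, PSAT1, SHMT1 or MTHFD2 held CACGTG or TGATGNAAT. These matches are a description of letters in short windows and do not separate the enzymes that fell from those that were not called.

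Regulators known to act on these genes were unlike each other. In a list of 15 regulators, 14 were tested, 6 fell, 1 rose and 7 were not called, with a median log2 fold change of -0.37, beside 24.9% lower and 33.6% higher over all tested genes. Among protein-coding genes the shares were 31.7% and 24%. With scaling to GAPDH 13 of the 14 regulators were lower, beside 9738 of all 16668 tested genes. ATF4, the activator of serine synthesis genes under amino acid shortage, was at 116 and 118 FPKM in the controls and at 142 and 134 FPKM with GNE-987, short of the fold (log2 fold change 0.23, limma adjusted P = 0.0123). The direction of ATF4 rests on the scaling, as it was among the regulators called lower when scaled to GAPDH. Other members of its network moved in opposite directions. ATF3, a stress-induced factor, rose from 4.31 and 4.27 FPKM to 89.2 and 91.5 FPKM, 21.0-fold. TRIB3, a pseudokinase and ATF4 target, fell from 53.6 and 48.7 FPKM to 4.21 and 4.39 FPKM, 11.9-fold. CEBPG, a dimer partner of ATF4, fell from 15.8 and 15.7 FPKM to 3.42 and 3.75 FPKM, 4.40-fold. MYC, known to activate several of the 9 enzymes, fell from 91.5 and 90.4 FPKM to 40.3 and 39.5 FPKM, 2.28-fold (log2 fold change -1.19, limma adjusted P = 0.000188).

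Among 24 other folate cycle and glycine cleavage genes, 16 were tested, 6 fell, 2 rose and 8 were not called, with a median log2 fold change of -0.19. The shares over all tested genes were 24.9% lower and 33.6% higher, and over protein-coding ones 31.7% and 24%. SLC19A1, the reduced folate carrier, fell from 10.2 and 10.2 FPKM to 1.77 and 1.62 FPKM (log2 fold change -2.52, limma adjusted P = 0.0002). MTHFSD, a protein with a domain like that of methenyltetrahydrofolate synthetase, fell as well (2.47 and 2.78 FPKM against 0.645 and 0.693 FPKM). The purine enzymes that consume 10-formyltetrahydrofolate fell too. GART was at 32.4 and 35.8 FPKM in the controls and 10.4 and 10.5 FPKM with GNE-987, and ATIC had a log2 fold change of -1.08. The 2 calls of a rise in this list were lost under scaling to total reads, GAPDH or quantiles, where none of its genes was called higher. Its 6 calls of a fall were 12 with GAPDH and 3 in the test against a fold of 2. Those 2 settings called 9738 and 2647 of all 16668 tested genes lower. In the deposited values TYMS, thymidylate synthase, was at 32.0 and 33.6 FPKM in the controls and 40.7 and 41.7 FPKM with GNE-987, short of the fold (log2 fold change 0.33, limma adjusted P = 0.00513). ALDH1L1, the cytosolic relative of ALDH1L2, SLC25A32, the mitochondrial folate carrier, and GLDC of the glycine cleavage system were under the filter, at no more than 0.405 FPKM in any library.

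Of 17 methionine cycle and transsulfuration genes, 13 were tested, with a median log2 fold change of -0.11. In this list 3 fell and 2 rose, beside 24.9% lower and 33.6% higher over all tested genes and 31.7% and 24% over protein-coding ones. MTR, the methionine synthase that takes the methyl group from folate, fell from 9.18 and 10.2 FPKM to 2.46 and 2.23 FPKM, 4.12-fold. CTH, which splits cystathionine to cysteine, fell (3.76 and 3.50 FPKM against 1.04 and 1.13 FPKM). GNMT, which methylates glycine, rose from 0.608 and 0.928 FPKM to 15.1 and 14.4 FPKM, 19.2-fold. AHCY, which clears S-adenosylhomocysteine, was at 54.3 and 47.2 FPKM in the controls and at 104 FPKM in both treated libraries (log2 fold change 1.03, limma adjusted P = 0.000951), and it missed the fold without control replicate 2. The 2 calls of a rise in this list were 1 under scaling to total reads, GAPDH or quantiles and in the test against a fold of 2. Its 3 calls of a fall were 6 with total reads, 5 with quantiles and 11 with GAPDH. Those 3 scalings called 6707, 5464 and 9738 of all 16668 tested genes lower. MAT2A, which makes S-adenosylmethionine, was at 158 and 159 against 269 and 269 FPKM and CBS, which joins serine to homocysteine, at 12.1 and 11.2 against 10.1 and 8.95 FPKM, neither reaching the fold.

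Of 20 genes of serine transport and use, 16 were tested, with a median log2 fold change of -0.58. Of these, 5 fell and 1 rose, beside 24.9% lower and 33.6% higher over all tested genes and 31.7% and 24% over protein-coding ones. The counts of this list depended on the settings. They were 12 lower under total reads, 15 under GAPDH and 2 in the test against a fold of 2. Those 3 settings called 6707, 9738 and 2647 of all 16668 tested genes lower. With 1 added, or with a mean of 1 FPKM or more, 3 genes of the list were lower. SLC38A1, a transporter of small neutral amino acids, fell from 32.9 and 37.1 FPKM to 4.57 and 4.89 FPKM, 7.39-fold. SLC1A5, which exchanges neutral amino acids, fell from 144.5 and 140.4 FPKM to 45.5 and 43.9 FPKM, 3.19-fold (log2 fold change -1.67, limma adjusted P = 0.000144). SFXN1, the mitochondrial serine carrier, fell from 16.0 and 18.8 FPKM to 8.86 and 6.88 FPKM. SLC1A4, a serine and alanine transporter, was at 7.60 and 8.27 against 4.33 and 4.72 FPKM, short of the fold. SPTLC2, a subunit of the enzyme that joins serine to palmitoyl-CoA, rose from 4.12 and 5.03 FPKM to 11.9 and 10.9 FPKM, though it was not called when scaled to total reads or GAPDH or when tested against a fold of 2.

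**Figure D4:**
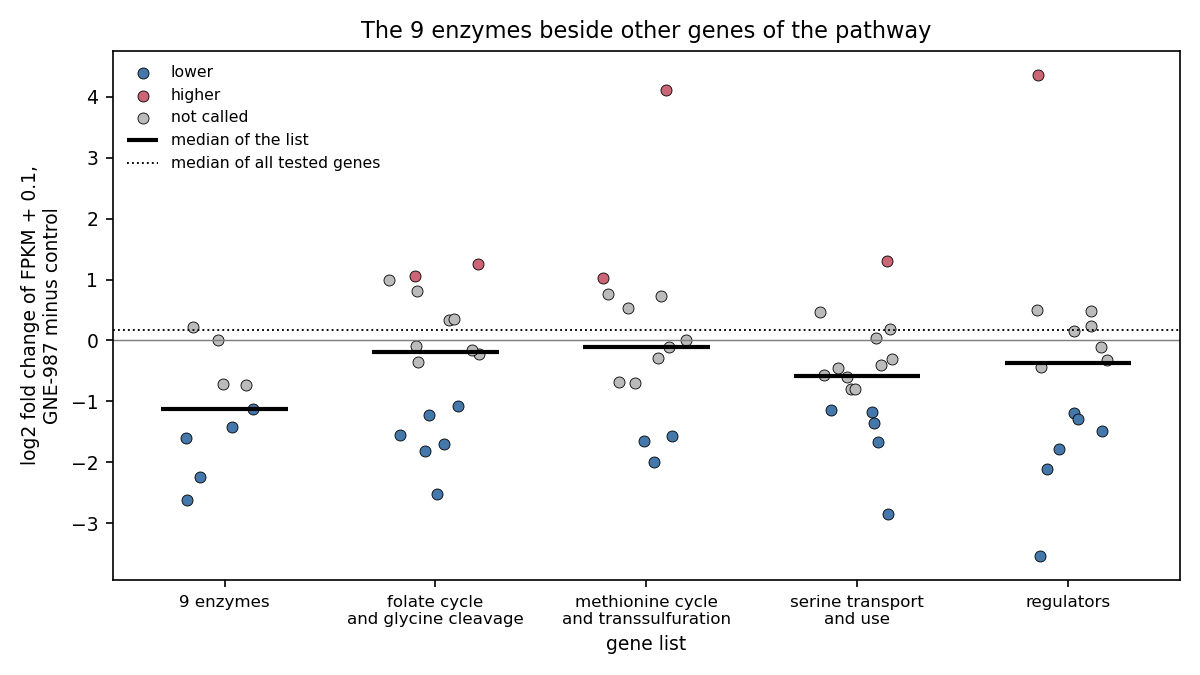
Log2 fold change of FPKM + 0.1, GNE-987 minus control, for each tested gene of the 9 enzymes and of 4 other lists, coloured by call, with a bar at each list's median and a dotted line at the overall median. The 9 enzymes have a median of -1.13 and the other lists have -0.19, -0.11, -0.58 and -0.37, against 0.17 for all genes.

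The labelled cell type was set beside its markers. Of 8 granulocytic markers, the defining granule genes ELANE and CTSG were at 0 in both controls, and MPO was at 0.0246 and 0 FPKM there and 11.8 and 11.3 FPKM in the treated cells. Other genes of the list were detected in the controls, with the granule genes AZU1 at 2.07 and 2.10 FPKM and PRTN3 at 0.341 and 0.710 FPKM, CD33 at 0.836 and 0.915 FPKM, CEBPE at 0.0559 and 0.116 FPKM and the transcription factor SPI1 at 7.52 and 5.68 FPKM. The summed level of this list was 10.8 and 9.53 FPKM in the controls and 32.3 and 29.6 FPKM with GNE-987. Its members did not move together. AZU1 was at 12.6 and 10.9 FPKM with GNE-987, CD33 at 0.460 and 0.284 FPKM and SPI1 at 4.80 and 3.23 FPKM. Of its 6 tested genes 3 rose, 1 fell and 2 were not called, beside 24.9% lower and 33.6% higher over all tested genes. All 8 erythroid markers were expressed, with sums of 426 and 403 FPKM in the controls and 769 and 656 FPKM with GNE-987. By the rule 4 of these 8 rose and 4 fell, so the sum does not speak for each gene. GATA1, the erythroid and megakaryocytic transcription factor, was at 124 and 122 FPKM in the controls and 15.1 and 12.5 FPKM in the treated cells. For a line labelled NB4, ELANE, CTSG and MPO were at or near 0 in the controls while AZU1 and SPI1 were detected, and the cells are named here by their label. In the T cell, B cell, megakaryocytic and stromal lists, CD3E, MS4A1, PF4 and GP1BB were at 0 in both controls, and CD79A was at 0.0867 and 0 FPKM there and 23.4 and 21.4 FPKM in the treated cells. The part of these marker differences in the enzymes' values was not tested.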

How the data were processed

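Total RNA of 4 libraries was sequenced, and the authors deposited 1 FPKM value per gene and library. The submitters' processing notes name HISAT2 2.0.5 and hg38. The counting program, annotation and strand setting are not given in the sources used here. Groups and replicate numbers came from the labels, and dose and time from the study's text. Values were tested as log2(FPKM + 0.1) with limma 3.58.1 in R 4.3.3 (empirical Bayes with an intensity trend, no block) on 16668 genes averaging 0.5 FPKM or more, and P values were Benjamini-Hochberg adjusted over all of them. Following the study's criteria, a call needed a fold over 2 or under 0.5 with P under 0.05 before adjustment. Means are given ± SD over 2 libraries, and fold values between means are of FPKM.

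Because FPKM are not counts, a count model was not used for the main result. Whole reads were recovered from FPKM steps with a tolerance of 0.01. Of 32895 genes above 0, 17431 (53.0%) came out whole at GENCODE 44 exon lengths, 15358 at another whole length and 106 at none. MTHFD1 and MTHFD2 needed lengths of 9377 and 4870 bases, against 17357 and 11443 in GENCODE 44, so their level beside other genes depends on the authors' annotation. The fit was tested on simulated data: of 200 changed genes among 16668, 163 were recovered, with 102 calls among unchanged ones. Gene positions are from GENCODE 44, in which 58207 of 58735 identifiers were found, and promoter sequences are from RefSeq (GRCh38.p14). Motif letters were chosen with the sequences known.

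The 9 enzymes and the gene lists were chosen with earlier results of these data known. Named list genes were fixed counterparts of the enzymes and the 3 genes of each list with the largest change among those averaging 1 FPKM or more. Some genes that this rule names are not reported here. ATIC and the marker genes were named in addition, after their values were seen. Genes like PHGDH were the 5 nearest in centred log2 values. Alternatives were pseudocounts of 1 and 0.01, other filters, quantile, median-ratio, GAPDH, total-read and PHGDH scaling, adjusted P values, limma's test against a fold of 2, limma-voom on recovered reads, a replicate block and leaving out each library.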

Additional observations from a re-analysis of the deposited data

How the results depend on the processing

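The calls for the 5 enzymes that fell kept their direction under every alternative run. Of these, MTHFD1 did not pass limma's test against a fold of 2. Scaling to GAPDH gave 9 enzymes called lower, where the deposited scaling gave 5. Over all genes, 4148 were lower and 5602 higher. GAPDH scaling gave 9738 lower and 3031 higher, total reads 6707 lower, the test against a fold of 2 gave 2647 lower, and dropping the filter 8757 higher. The log2 fold change of PHGDH turned to -1.58 (quantile), -1.84 (GAPDH), -0.79 (total reads), and it ranged from -0.023 (without control replicate 1) to 0.046 (without control replicate 2) when 1 library was left out. That of SHMT2 turned to -0.51, -1.64 and -0.58 under the same 3 scalings. For the deposited scaling against GAPDH, quantile and total-read scaling, which is nearer to the RNA per cell was not tested. Leaving out each library gave 5 enzymes lower each time, and between 3714 and 4101 genes lower and 4978 and 5374 higher over all genes. Same-numbered libraries did not deviate together over genes (correlation 0.00537). With 1 difference between libraries in each group, this cannot show whether the replicate numbers pair samples. With the replicate block 5 enzymes were lower, and 4186 genes lower and 5667 higher over all genes. Depth limits ALDH1L2 most, with 16 reads in each treated library. Counting error is the only error such reads show, and 2 libraries a group limit every P value.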
